A study of Danio rerio with 8 samples.

Results

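Mature osteoclasts, the cells that resorb bone, were compared with osteoblasts, the cells that lay it down, in RNA from sorted cells of the fractured zebrafish scale. The members of the comparison were the libraries of the fraction labelled mOC (GFPhigh) and of the fraction labelled OB (GFP-, mCh+). Both OB files held the same value for each of the 32057 genes, so they were counted as 1 library, and the comparison rests on 3 distinct libraries, 2 of mOC and 1 of OB, of the 7 distinct libraries in the series. Genes were described where they reached 1 RPM (a normalised read count, scaled to the reads counted in genes) in both mOC libraries or in OB. This held for 13399 of the 32057 genes, of which 10396 reached 1 RPM in both mOC libraries and in OB, 630 in both mOC libraries only, and 2373 in OB but not in both mOC libraries. The tests, and the counts of calls and medians of each list, used the larger set of tested genes given below. A few genes under this limit were named as well.

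All libraries came from adult fish labelled as wild type that carried the transgenes *trap:GFP* and *osterix:mCherry*, and the scales were taken the day after they were fractured. *trap:GFP* is driven by the upstream region of the zebrafish gene for tartrate-resistant acid phosphatase, *acp5a*, and *osterix:mCherry* by that of the medaka gene *sp7*. The scales were digested with Liberase TM, stained with Hoechst and sorted, mOC as cells of high GFP whatever their mCherry, and OB as cells with mCherry and no GFP. GFPhigh cells differ in shape and number of nuclei, and the mCh+ gate takes in osteoblasts of several shapes. The study found most GFPhigh cells to be mCherry-positive and ascribes this to uptake of particles shed by osteoblasts. Whether RNA of such particles adds to the levels of osteoblast genes in mOC was not tested. The other fractions, pOC (GFPlow, mCh+, labelled precursors of osteoclasts) and EV (mCh+ particles of low Hoechst signal), entered the fit and are given here only where they place a value. Since the reporters *acp5* and *sp7* set the gates, their levels check the sort and are not independent results.

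Osteoclasts come from the myeloid blood lineage, fuse, and seal off a patch of bone, into which a vacuolar proton pump (V-ATPase) and a chloride channel secrete acid while cathepsin K and other proteases digest the matrix. Osteoblasts come from mesenchyme and secrete type I collagen and other matrix proteins that are then mineralized. They also make the ligands that govern the formation of osteoclasts. In zebrafish scales both cell types lie on the same thin plate of dermal bone.

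The libraries held 12946256 and 11814593 reads in mOC and 14948034 in OB, recovered from the size of the RPM steps. A level of 3 reads, taken as the floor, was 0.232 and 0.254 RPM in mOC and 0.201 RPM in OB. Genes were compared with limma-trend on log2(RPM + 1) in 1 fit of all 7 libraries, which tested the 15635 genes that reached 1 RPM anywhere. Calls needed a log2 fold change (mOC minus OB) beyond 1 in either direction and an adjusted p below 0.05. With 1 OB library, no spread within OB could be measured and the fit lends OB the spread of the other fractions. RPM is not scaled by gene length, so levels are compared between libraries and not between genes, and on this scale the change of genes with few reads is understated. In pooled RNA, fewer cells of a type and less RNA per cell cannot be told apart.

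mOC and OB differed in both directions over a wide range of levels. Of the 15635 genes, 411 (2.63%) were called higher and 650 (4.16%) called lower in mOC. Both mOC libraries lay over 4-fold above OB for 242 of the genes called higher, and over 4-fold below OB for 548 of those called lower. Without a test, 1592 of the 13399 genes (11.9%) had both mOC libraries at least 2-fold above OB and 2965 (22.1%) had both at least 2-fold below OB, while the mOC mean lay within 2-fold of OB for 7563. The median log2 fold change over all tested genes was -0.14. TMM scaling moved this median to 0 and gave 499 genes higher and 576 lower. With quantile normalization the median was 0.06 and the counts were 567 and 673. DESeq2 on recovered reads called 646 higher and 639 lower, so that 50.3% of its calls were higher, against 38.7% of those of limma, and edgeR called 97 and 182, all among the calls of limma.

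The number of calls depended on single libraries. Without mOC replicate 2, 5 genes were called higher and 12 lower, and without mOC replicate 1, 45 and 111. The counts were 63 and 78 without pOC replicate 1 and 64 and 88 without pOC replicate 2, whereas leaving out EV replicate 1 gave 890 and 1440 and leaving out EV replicate 2 gave 880 and 1435. In each of the 6 fits that leave out a library, 14 genes kept their call, 5 higher and 9 lower. Those higher were *acp5*, *gch2*, *mcoln3*, *aox5* and a gene with no symbol (ENSDARG00000114516), and those lower included *dcn*, *clu*, *sparc*, *lum*, *timp4*, *mmp2* and *adcy2*. For each group of genes the number of calls that held without each mOC and pOC library is therefore given. The counts of each list are to be read beside the shares over all tested genes, 2.63% higher and 4.16% lower. Leaving out a pOC or EV library left each log2 fold change as it was. What changed was the estimate of spread, its degrees of freedom and the set of genes tested, over which p is adjusted. Without 1 mOC library the contrast set 1 library against 1. A call lost without a pOC library thus does not show a smaller difference between mOC and OB. Nor does a call lost without an mOC library show by itself that the difference rested on that library, since such a fit also has fewer degrees of freedom. Across these fits the log2 fold change of *ctsk* stayed within 2.29 to 2.46 and that of *atp6ap1b* within 2.92 to 2.93. That of *col1a2* ranged more widely, from -4.61 to -3.55. All calls held when an EV library was left out.

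**Figure D1:**
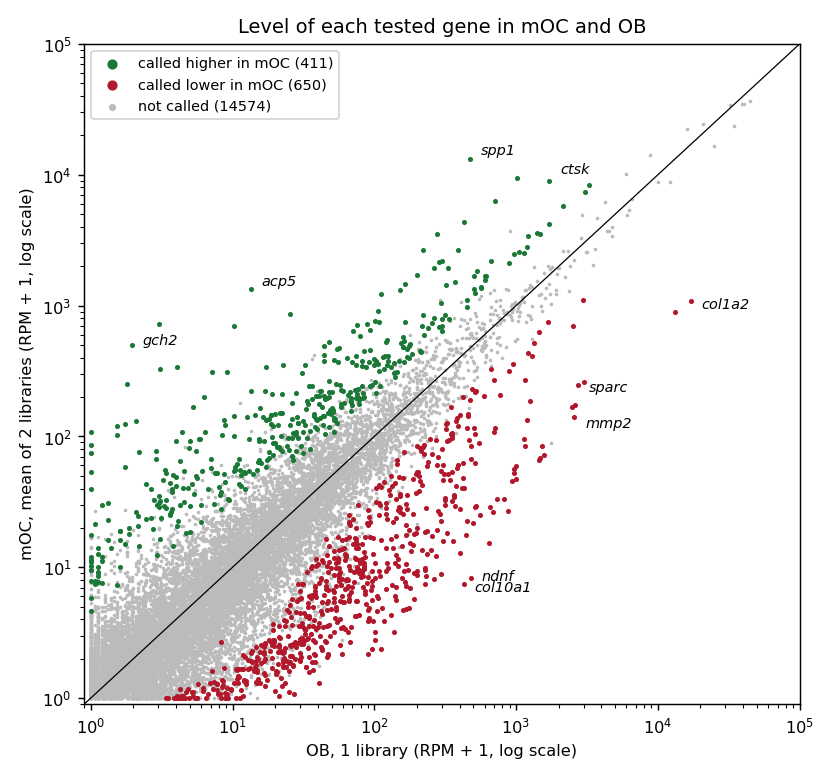
Level of each of the 15635 tested genes in mOC (vertical axis, mean of 2 libraries) and in OB (horizontal axis, 1 library), as RPM + 1 on log scales. Green points are the 411 genes called higher and red points the 650 called lower in mOC, gray points were not called, and the line marks equal levels.

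The labels of the fractions were set against markers of each cell type. *acp5* (ENSDARG00000019763), the gene of tartrate-resistant acid phosphatase and the source of the GFP reporter, had 1132 and 1538 RPM in mOC, against 12.5 RPM in OB. *sp7*, the osteoblast factor osterix whose medaka relative drives the mCherry reporter, had 0.62 and 0.17 RPM in mOC, against 5.42 RPM in OB. Of mOC and OB, each reporter gene was thus more abundant in the fraction gated for it, though the difference of *sp7* missed the threshold (log2 fold change -2.22 ± 0.62 SE, limma adjusted p = 0.0927). *bglap*, which encodes osteocalcin, a late osteoblast product, and *calcr*, the calcitonin receptor of mammalian osteoclasts, were listed at 0 in all libraries. By quantitative PCR, however, the study reports osteocalcin as enriched in the mCh+ fraction, the gate of OB. The listed values of *bglap* thus cannot show that these osteoblasts lack its RNA. The listed symbol *bglapl* matched no gene in the name table. Why no reads were listed for *bglap* was not tested. The paralog *acp5b* did not exceed 0.25 RPM in mOC or OB.

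Of the genes of acid secretion, 6 of 13 were called higher in mOC, with log2 fold changes of 1.98 to 3.96 among the called members. *tcirg1* (ENSDARG00000105142) encodes the membrane subunit that directs the proton pump to the resorbing surface and had 3692 and 4975 RPM in mOC, against 427 RPM in OB (log2 fold change 3.32 ± 0.24, limma adjusted p = 0.00174). Both mOC libraries stood clear of OB. A copy listed under the same symbol (ENSDARG00000016835) had 12.9 and 26.6 RPM in mOC and 1.14 RPM in OB (3.19 ± 0.63, limma adjusted p = 0.0308). *slc4a2* (ENSDARG00000052330), an anion exchanger that brings in chloride in return for bicarbonate, had 236 and 210.2 RPM in mOC, against 16.1 RPM in OB (3.71 ± 0.29). Its paralog of the same symbol (ENSDARG00000028173) did not separate the fractions, with 14.1 and 2.79 RPM in mOC and 11.6 RPM in OB.

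*ca2*, the carbonic anhydrase that supplies the protons, had 397 and 309 RPM in mOC, against 21.6 RPM in OB (log2 fold change 3.96 ± 0.54, limma adjusted p = 0.00917). *snx10b*, a sorting nexin needed for the ruffled border in mammals, had 116 and 126 RPM in mOC and 7.89 RPM in OB (3.78 ± 0.33). For these genes the replicates of mOC lay close together and far above OB. *ostm1*, the partner of the chloride channel, changed less, with 93.2 and 118 RPM in mOC against 25.8 RPM in OB (1.98 ± 0.30). The channel itself, *clcn7*, had 270.4 and 170.1 RPM in mOC and 38.3 RPM in OB, and its difference missed the threshold (2.45 ± 0.72, limma adjusted p = 0.104). *clcn7* passed with DESeq2 on recovered reads (DESeq2 adjusted p = 0.00209) but not with edgeR. None of the 13 members was called lower, and the median log2 fold change was 1.98. Of the 3 with a negative log2 fold change, *ca12* (0 and 0 RPM in mOC, 2.88 RPM in OB, -1.96 ± 0.83) was the lowest. Of these 6 calls 3 held without mOC replicate 1, 3 without each pOC library and 0 without mOC replicate 2.

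Subunits of the V-ATPase, the pump that acidifies lysosomes in all cells and the resorption pit in osteoclasts, were the list with the most members higher in mOC after oxidative phosphorylation. Of 21 tested genes 13 were called higher and none lower, and the median log2 fold change was 2.63. Their RPM summed to 17349.5 and 16506 in mOC, against 2188 in OB, a ratio of 7.74. The sum was between these in pOC, at 9284 and 7375 RPM. *atp6v0c* (ENSDARG00000057853), the ring subunit that carries protons through the membrane, had 6526 and 6024 RPM in mOC, against 714 RPM in OB (log2 fold change 3.13 ± 0.20, limma adjusted p = 0.0014). Genes of the catalytic head followed it. *atp6v1b2* (ENSDARG00000013443) had 1284 and 1151 RPM in mOC and 111 RPM in OB (3.44 ± 0.25), and *atp6v1a* (ENSDARG00000076318) had 867 and 558 RPM in mOC and 74.1 RPM in OB (3.21 ± 0.32).

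The regulatory subunit *atp6v1h* (3.11 ± 0.24) and the stalk subunit *atp6v1c1* (2.86 ± 0.25) rose by like amounts, as did the accessory genes *atp6ap1b* (2.92 ± 0.18) and *atp6ap2* (2.85 ± 0.21). Among the members that were not called were copies with few reads. A copy of *atp6v0c* (ENSDARG00000036577) had 2.86 and 3.13 RPM in mOC and 7.16 RPM in OB, and a copy of *atp6v1b2* (ENSDARG00000043465) had 0.62 and 3.98 RPM in mOC and 5.02 RPM in OB. *atp6v0d1* had 6.49 and 8.04 RPM in mOC against 0.87 RPM in OB and missed the threshold (2.14 ± 0.59, limma adjusted p = 0.0885). Of the 13 calls 8 held without mOC replicate 1, 9 without each pOC library and 0 without mOC replicate 2.

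The enzymes that digest matrix went both ways. *ctsk*, the collagen-cleaving protease cathepsin K, had 8408 and 9433 RPM in mOC, against 1719 RPM in OB (log2 fold change 2.37 ± 0.20, limma adjusted p = 0.00243). OB was thus well above the floor for *ctsk*, a gene used to name osteoclasts. *mmp13b*, a collagenase gene, had 1838 and 1166 RPM in mOC and 372 RPM in OB (1.97 ± 0.31), while its paralog *mmp13a* had 9.58 and 18.1 RPM in mOC and 6.22 RPM in OB. *mmp9*, a gelatinase gene, had 4818 and 2644 RPM in mOC and 901 RPM in OB and lay just outside the threshold (1.99 ± 0.47, limma adjusted p = 0.0544). With DESeq2 on recovered reads *mmp9* passed (DESeq2 adjusted p = 0.000201), but not with edgeR.

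*mmp2*, the other gelatinase, ran the opposite way, with 179 and 101 RPM in mOC against 2576 RPM in OB (-4.25 ± 0.33, limma adjusted p = 0.00177). *mmp14*, whose membrane-bound product activates the MMP2 proenzyme, did not pass for either copy, with 1007 and 565 RPM in mOC and 1274 RPM in OB for ENSDARG00000002235 (-0.76 ± 0.35) and 45.2 and 23.9 RPM in mOC and 51.3 RPM in OB for ENSDARG00000008388. *adam8a*, a cell surface protease gene, fell (38.2 and 44.7 RPM in mOC, 107 RPM in OB, -1.36 ± 0.27). Of 11 tested enzymes 3 rose and 2 fell, with a median log2 fold change of 0.76, and the calls of *acp5* and *mmp2* held in all 6 fits without a library. The call of *ctsk* was lost without mOC replicate 2 only, and those of *mmp13b* and *adam8a* without each of the mOC and pOC libraries.

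Genes of fusion and attachment were split as well. *ocstamp*, a membrane protein required for the fusion of osteoclast precursors, had 72.7 and 143 RPM in mOC, against 5.35 RPM in OB (log2 fold change 4.02 ± 0.47, limma adjusted p = 0.00529). *src*, the kinase of the sealing zone, had 189.9 and 213 RPM in mOC and 39.7 RPM in OB (2.31 ± 0.26). The vitronectin receptor did not pass the test: *itgav* had 126 and 98.2 RPM in mOC and 80.1 RPM in OB (0.47 ± 0.36), and *itgb3* (ENSDARG00000045070) had 42.8 and 27.2 RPM in mOC and 12.8 RPM in OB (1.35 ± 0.55). A copy of *itgb3* (ENSDARG00000056767) was near the floor in OB, at 0.27 RPM, with 1.54 and 0.17 RPM in mOC. The tetraspanin gene *cd81* fell in both copies, to 1065 and 1145 RPM in mOC against 2956 RPM in OB for ENSDARG00000036080 (-1.42 ± 0.17), and to 0.93 and 0.59 RPM against 21.5 RPM for ENSDARG00000022437 (-3.69 ± 0.53). In this list 2 of 17 tested members rose and 2 fell, with a median of 0.44, and of the 4 calls that of *ocstamp* alone held without mOC replicate 1, that of *src* alone without each pOC library, and none without mOC replicate 2.

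**Figure D2:**
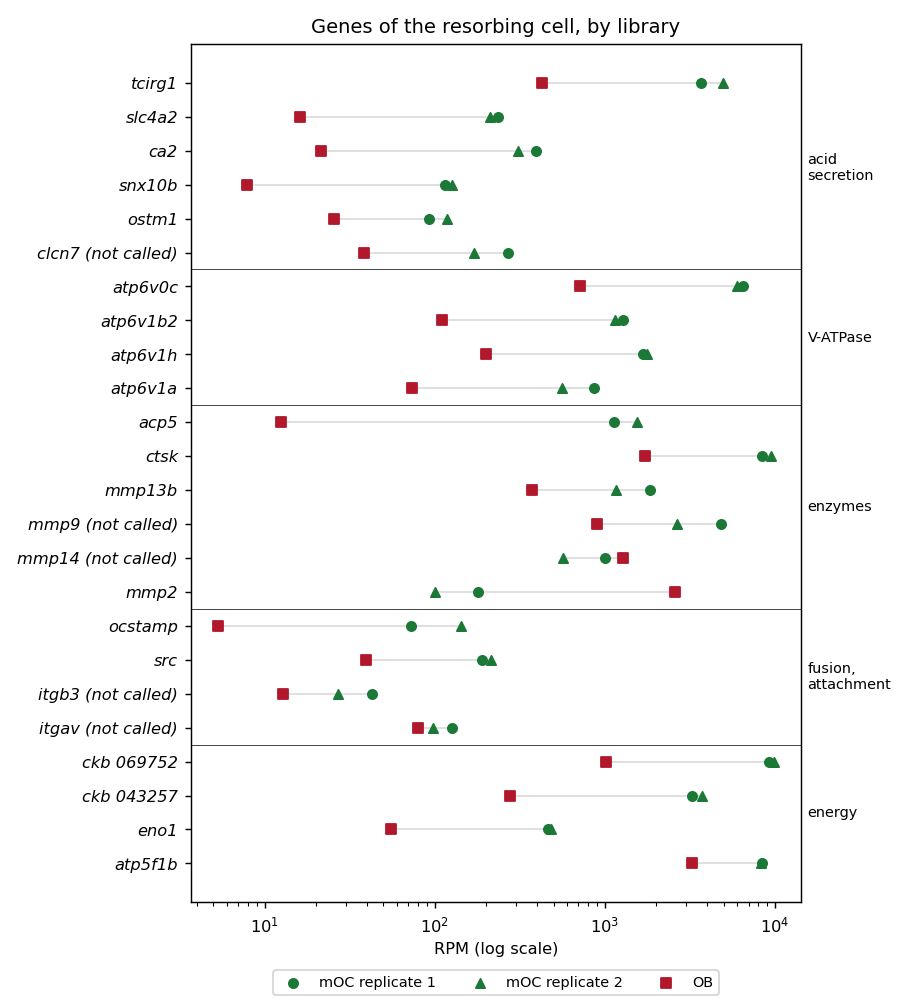
RPM on a log scale in mOC replicate 1 (green circles), mOC replicate 2 (green triangles) and OB (red squares) for genes of acid secretion, the V-ATPase, matrix-digesting enzymes, fusion and attachment, and energy supply. Both mOC libraries lie to the right of OB in every gene drawn except *mmp14* (ENSDARG00000002235) and *mmp2*, and the digits after *ckb* are the last of its gene ID.

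Genes of energy supply were also among those that rose. The brain-type creatine kinase gene *ckb*, which buffers ATP, is listed under 2 IDs. ENSDARG00000069752 had 9220.5 and 9827 RPM in mOC, against 1019 RPM in OB (log2 fold change 3.22 ± 0.23, limma adjusted p = 0.00174), and ENSDARG00000043257 had 3271 and 3723 RPM in mOC, against 276 RPM in OB (3.66 ± 0.35, limma adjusted p = 0.00317). Glycolytic genes moved by like amounts or less. *eno1*, an enolase gene, had 461 and 486 RPM in mOC and 55.5 RPM in OB (3.07 ± 0.23). *aldoa* (ENSDARG00000011665) had 5439 and 6093 RPM in mOC and 2148 RPM in OB (1.42 ± 0.15). The copy ENSDARG00000034470 had 59.1 and 53.1 RPM in mOC and 6.09 RPM in OB (3.01 ± 0.52) and was called as well. *tpi1* (ENSDARG00000040988) had 410.4 and 374 RPM in mOC and 98.4 RPM in OB (1.98 ± 0.29). Its copy ENSDARG00000025012 had 4.25 and 3.55 RPM in mOC and 0.13 RPM in OB (2.11 ± 1.22) and was not called. Of 23 tested genes of glycolysis and creatine kinase 12 rose and none fell, with a median of 1.25. Of these calls 3 held without mOC replicate 1, 2 without each pOC library and 0 without mOC replicate 2.

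The nuclear genes of oxidative phosphorylation, the mitochondrial route to ATP, leaned towards mOC by a small amount. Of 89 tested members 85 had a positive log2 fold change, the median was 1.12, and 18 were called higher and none lower. Of the 81 that reached 1 RPM in both mOC libraries or in OB, 55 had both mOC libraries at least 2-fold above OB. Over all 13399 such genes the share was 11.9%. *atp5f1b*, the catalytic subunit of ATP synthase, had 8414 and 8312 RPM in mOC, against 3266 RPM in OB (1.36 ± 0.17, limma adjusted p = 0.00655), and *atp5f1a* had 7820.5 and 7018 RPM in mOC and 3058 RPM in OB (1.28 ± 0.14). *cyc1* of complex III had 481 and 554 RPM in mOC and 154 RPM in OB (1.74 ± 0.22). None of the 18 calls held when any mOC or pOC library was left out.

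The iron and mitochondrial biogenesis genes were mixed, with 2 of 14 higher and 2 lower. *tfr1a*, the transferrin receptor that brings iron into cells, had 41.2 and 43.4 RPM in mOC, against 1.47 RPM in OB (log2 fold change 4.13 ± 0.62, limma adjusted p = 0.012), and *slc11a2*, an iron transporter gene, had 380.5 and 321 RPM in mOC and 98.5 RPM in OB (1.82 ± 0.29). *steap4*, a metalloreductase gene, fell to 6.95 and 5.84 RPM in mOC against 226 RPM in OB (-4.94 ± 0.40). Of the 4 calls that of *steap4* alone held without mOC replicate 1 or each pOC library, and none held without mOC replicate 2.

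Lysosomal genes were higher in mOC in part. Of 37 tested members 10 rose and none fell, and the median was 0.61. *mcoln3* (ENSDARG00000102050), a cation channel of endosomes and lysosomes, had 372 and 287 RPM in mOC, against 2.07 RPM in OB (log2 fold change 6.74 ± 0.35, limma adjusted p = 0.000746). Its paralog *mcoln3a* showed no such gap, with 1.16 and 1.18 RPM in mOC and 2.81 RPM in OB. *naga*, a lysosomal glycosidase gene, had 1752 and 2119 RPM in mOC and 329.7 RPM in OB (2.54 ± 0.27). *ctsd*, cathepsin D, had 1595 and 1786 RPM in mOC and 504 RPM in OB (1.74 ± 0.21), and the lysosomal membrane gene *lamp2* had 771 and 807 RPM in mOC and 300.3 RPM in OB (1.39 ± 0.20). As a sum over the list, pOC (32298 and 25433 RPM) was above mOC (15925 and 15649 RPM), and OB was at 6881 RPM. *mcoln3* kept its call in all 6 fits without a library. Of the 10 calls 2 held without mOC replicate 1 and 1 without mOC replicate 2 or each pOC library.

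Actin genes did not move as a group. Of 37 tested members of the podosome and actin list 5 rose and 4 fell, with a median of 0.04, and the summed level was 47785 and 41851 RPM in mOC and 47066 RPM in OB. Those of largest change included *was*, the Wiskott-Aldrich protein that starts actin branches in podosomes, with 158 and 133 RPM in mOC against 13.5 RPM in OB (log2 fold change 3.33 ± 0.38, limma adjusted p = 0.00504), and *arpc5*, a subunit of the Arp2/3 complex, with 356 and 387 RPM in mOC against 54.8 RPM in OB (2.74 ± 0.24). *lcp1*, the leukocyte form of plastin, had 2324 and 1575 RPM in mOC and 261 RPM in OB (2.87 ± 0.31). The members that fell were *sh3pxd2b*, *fscn1*, *cttn* and *tln1*, genes of the podosome scaffold, of actin bundles, of cortactin and of talin. Of the 9 calls 1 held without mOC replicate 1, 3 without each pOC library and 0 without mOC replicate 2.

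Of 13 tested receptor and signaling genes of osteoclasts 5 rose and none fell, with a median log2 fold change of 1.18. *csf1ra*, the receptor for CSF1 and IL34, had 173 and 201 RPM in mOC, against 32.8 RPM in OB (log2 fold change 2.47 ± 0.25, limma adjusted p = 0.00333). In zebrafish *csf1ra* is also a gene of yellow pigment cells, whose other markers are given with the cell type markers. *tyrobp*, the adaptor DAP12, had 57.2 and 75.2 RPM in mOC and 1.87 RPM in OB (4.54 ± 0.62), *fcer1gl*, a related adaptor, had 85.3 and 98.8 RPM in mOC and 15.8 RPM in OB (2.47 ± 0.35), and the kinase *syk* had 60.9 and 39.6 RPM in mOC and 7.69 RPM in OB (2.53 ± 0.43). *tnfrsf11a*, the receptor RANK, showed no gap, with 69.2 and 47.6 RPM in mOC and 72.3 RPM in OB (-0.33 ± 0.42, limma adjusted p = 0.772). *csf1ra* alone held its call without mOC replicate 1 or each pOC library, and no gene did so without mOC replicate 2.

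The transcription factors of osteoclasts and the myeloid lineage went both ways, and of 26 tested members 3 rose and 5 fell, with a median log2 fold change of -0.29. *spi1* (ENSDARG00000000767), PU.1, had 713 and 779 RPM in mOC, against 108 RPM in OB (log2 fold change 2.78 ± 0.25, limma adjusted p = 0.00254). *spi1a* ran the other way, with 5.33 and 4.06 RPM in mOC against 25.5 RPM in OB (-2.23 ± 0.37, limma adjusted p = 0.0175), while pOC had 139.7 and 107 RPM. *prdm1*, which represses inhibitors of osteoclast formation in mice, had 370.2 and 387 RPM in mOC and 101 RPM in OB (1.89 ± 0.25). *nfatc1*, the factor at the head of the osteoclast program, had 406 and 284 RPM in mOC and 124 RPM in OB and was not called (1.45 ± 0.39, limma adjusted p = 0.0817). *mitf* (ENSDARG00000003732), a factor of osteoclasts and pigment cells, had 69.7 and 48.6 RPM in mOC and 7.29 RPM in OB and was likewise not called (2.84 ± 0.69, limma adjusted p = 0.0599), nor was the copy ENSDARG00000037833, with 5.02 and 4.82 RPM in mOC and 0.47 RPM in OB. With DESeq2 on recovered reads, *nfatc1* (DESeq2 adjusted p = 0.0059) and *mitf* ENSDARG00000003732 (DESeq2 adjusted p = 0.0011) passed. With edgeR on the same reads neither passed (edgeR adjusted p = 0.196 and 0.192). The others that rose or fell were *tfeb*, a factor of lysosomal genes (95.2 and 80.5 RPM in mOC, 18.3 RPM in OB, 2.20 ± 0.34), *mafb*, a macrophage factor (28.4 and 11.7 RPM in mOC, 167 RPM in OB, -3.12 ± 0.47), *cebpd* (20.3 and 22 RPM in mOC, 92.8 RPM in OB, -2.08 ± 0.41) and both genes listed as *junb* (-1.16 ± 0.17 and -1.41 ± 0.21), which are also counted among the stress genes. Of the 8 calls 2 held without mOC replicate 1, 1 without each pOC library and 0 without mOC replicate 2.

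Collagen chains formed the group with the largest shift towards OB. All 29 tested members of the list of collagen chains had a negative log2 fold change, and the median was -3.69. Of these members 18 were called lower and none higher. Their RPM summed to 3644 and 1673 in mOC, against 41272 in OB. pOC (15042 and 16128 RPM) and EV (11718 and 8428 RPM) lay between them. *col1a2*, a chain of the type I collagen that makes up most of the bone matrix, had 1455 and 699.7 RPM in mOC against 17068 RPM in OB (log2 fold change -4.08 ± 0.42, limma adjusted p = 0.00382). Its partner *col1a1* (ENSDARG00000035809) had 1247 and 532 RPM in mOC against 13254 RPM in OB (-4.02 ± 0.45, limma adjusted p = 0.00451). The paralog *col1a1a* followed, with 231 and 116 RPM in mOC and 2594 RPM in OB (-3.98 ± 0.42).

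Chains of type V collagen, which starts type I fibrils, fell in 3 of the 5 tested genes of the list. *col5a1* had 71.1 and 32 RPM in mOC, against 966 RPM in OB (log2 fold change -4.31 ± 0.43), *col5a2* (ENSDARG00000031678) had 218 and 118 RPM in mOC and 2467 RPM in OB (-3.93 ± 0.39), and *col5a2b* had 11 and 3.3 RPM in mOC and 264 RPM in OB (-5.21 ± 0.64). *col5a3a* (0.31 and 0 RPM in mOC, 7.23 RPM in OB, -2.85 ± 1.16) and *col5a3b* (1.54 and 1.52 RPM in mOC, 2.21 RPM in OB, -0.34 ± 0.49) were not called. *col6a2*, of beaded filaments around cells, had 52.6 and 39.7 RPM in mOC and 999.5 RPM in OB (-4.42 ± 0.36), *col6a4a* had 4.17 and 3.3 RPM in mOC and 158 RPM in OB (-5.08 ± 0.73), and *col8a2* had 6.41 and 3.72 RPM in mOC and 139.9 RPM in OB (-4.57 ± 0.45). *col6a4a* was named for its large change and is not in the list of chains, which does not hold every collagen gene. In each of the called genes the mOC libraries lay far under OB.

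*col10a1*, the short-chain collagen that marks osteoblasts as well as hypertrophic cartilage in fish, gave the largest fall among the called genes with a symbol and at least 50 RPM in OB. ENSDARG00000054753 had 10.3 and 2.54 RPM in mOC, against 427 RPM in OB (log2 fold change -6.08 ± 0.62, limma adjusted p = 0.00364), and ENSDARG00000101535, which had 145 and 32.1 RPM in mOC and 1771 RPM in OB, missed the threshold (-4.67 ± 1.15, limma adjusted p = 0.0628). The mOC replicates differed here more than in other lists. mOC replicate 1 was above replicate 2 in 25 of the 29 chains, with a median log2 difference of 0.72, against 6920 of 13399 genes and 0.02 over the genes described. The fall was thus smaller without replicate 2 (*col1a2* -3.55) than without replicate 1 (-4.61). Of the 18 calls 9 held without mOC replicate 1 and 3 each without mOC replicate 2, pOC replicate 1 and pOC replicate 2.

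Genes that fold, trim and cross-link collagen leaned towards OB, by less in the median than the chains. Of 39 tested members 16 were called lower and none higher, with a median log2 fold change of -2.05. *serpinh1* (ENSDARG00000019949), the collagen chaperone HSP47, had 106 and 61.9 RPM in mOC, against 1523 RPM in OB (-4.22 ± 0.37, limma adjusted p = 0.00245), and the copy ENSDARG00000075954 had 27 and 31.5 RPM in mOC and 167 RPM in OB (-2.48 ± 0.34). *pcolcea*, which aids the removal of the C-terminal propeptide, had 34.8 and 21.1 RPM in mOC and 511 RPM in OB (-4.19 ± 0.34). *lox*, lysyl oxidase, which starts cross-links, had 8.11 and 8.13 RPM in mOC and 188 RPM in OB (-4.37 ± 0.50). The prolyl isomerase genes *fkbp9* (-3.42 ± 0.32) and *fkbp10* (ENSDARG00000045129, -3.66 ± 0.34) fell likewise. Of the 16 calls 7 held without mOC replicate 1, 6 without each pOC library and 0 without mOC replicate 2.

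Of 41 tested members of bone and dermal matrix proteins 19 fell and 1, *spp1*, rose, and the median log2 fold change was -2.67. The share that rose was 2.44%, against 2.63% of all tested genes. Of the 21 that were not called, 4 had a positive log2 fold change, the largest of them in *acana*, aggrecan (13.1 and 6.6 RPM in mOC, 0.4 RPM in OB, 2.89 ± 0.95). *sparc*, osteonectin, a collagen-binding protein of bone, had 270.4 and 221 RPM in mOC, against 2735 RPM in OB (log2 fold change -3.48 ± 0.19, limma adjusted p = 0.000926). The small proteoglycans of collagen fibrils were among the steadiest calls, *dcn* (decorin) with 74.5 and 60.6 RPM in mOC and 1480.5 RPM in OB (-4.44 ± 0.22) and *lum* (lumican) with 31.7 and 20.6 RPM in mOC and 869 RPM in OB (-5.03 ± 0.33). All 3 genes kept their calls in all 6 fits without a library. *dcn* and *lum* had also been set as markers of dermal fibroblasts, together with *dpt* and *pdgfra*. *dpt* had 0.93 and 2.45 RPM in mOC and 45 RPM in OB, and *pdgfra*, given with the growth factor receptors, was called lower as well. The part of fibroblast RNA in the OB library was not tested. *fn1* (ENSDARG00000006526), fibronectin, had 134 and 133 RPM in mOC and 1196 RPM in OB (-3.16 ± 0.23). The copy ENSDARG00000019815 had 83 and 47.4 RPM in mOC and 133.7 RPM in OB (-1.08 ± 0.38) and was not called.

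*postn* (ENSDARG00000104267), periostin, had 105 and 83.5 RPM in mOC, against 1144 RPM in OB (log2 fold change -3.60 ± 0.32), whereas the copy ENSDARG00000043806 had 1.47 and 2.37 RPM in mOC and 0.87 RPM in OB and was not called. *spp1*, osteopontin, a phosphoprotein of bone to which osteoclasts attach, was the only member that rose, with 15928 and 10503 RPM in mOC, against 475 RPM in OB (4.77 ± 0.54, limma adjusted p = 0.00498). This one gene carried most of the list in mOC, whose RPM summed to 17304 and 11972 in mOC and 11647 in OB. The call of *spp1* held without each pOC library and was lost without mOC replicate 1 (limma adjusted p = 0.0814) and without mOC replicate 2 (limma adjusted p = 0.0744). Of the 20 calls of the list 14 held without mOC replicate 1, 3 without mOC replicate 2, 12 without pOC replicate 1 and 13 without pOC replicate 2.

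Genes of mineralization were lower in mOC in number, but the most abundant reads ran the other way. Of 23 tested members 5 fell and 2 rose, and 21 had a negative log2 fold change, with a median of -1.59. *phospho1*, a phosphatase of matrix vesicles, had 0.77 and 0.85 RPM in mOC, against 19.9 RPM in OB (-3.53 ± 0.55, limma adjusted p = 0.0136), and *enpp1*, which makes the mineral inhibitor pyrophosphate, had 60.2 and 58.5 RPM in mOC and 304 RPM in OB (-2.34 ± 0.22). *panx3*, a channel gene of mammalian osteoblasts, had 1.47 and 0.85 RPM in mOC and 36.7 RPM in OB (-4.14 ± 0.54). *alpl*, the tissue-nonspecific alkaline phosphatase, had 10.3 and 7.11 RPM in mOC and 28 RPM in OB (-1.60 ± 0.54), and *entpd5*, whose loss stops bone mineral in zebrafish, had 0.31 and 2.37 RPM in mOC and 25.1 RPM in OB (-3.64 ± 0.90). Neither of the last pair was called by limma or edgeR, while *entpd5* passed with DESeq2 on recovered reads (DESeq2 adjusted p = 0.0201).

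The members that rose were *phex* and *ankh*. *phex*, a protease of phosphate control that mammals express in osteoblasts and osteocytes, had 3149 and 2139 RPM in mOC, against 387 RPM in OB (log2 fold change 2.74 ± 0.30, limma adjusted p = 0.0043). Its call was lost without each mOC library. *ankh*, a membrane protein of pyrophosphate and ATP export, had 406 and 405 RPM in mOC and 115 RPM in OB (1.81). *ankh* falls outside the rule for naming and was named after its values were seen. Of the 7 calls of the list 1 held without mOC replicate 1, 2 without each pOC library and 0 without mOC replicate 2.

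**Figure D3:**
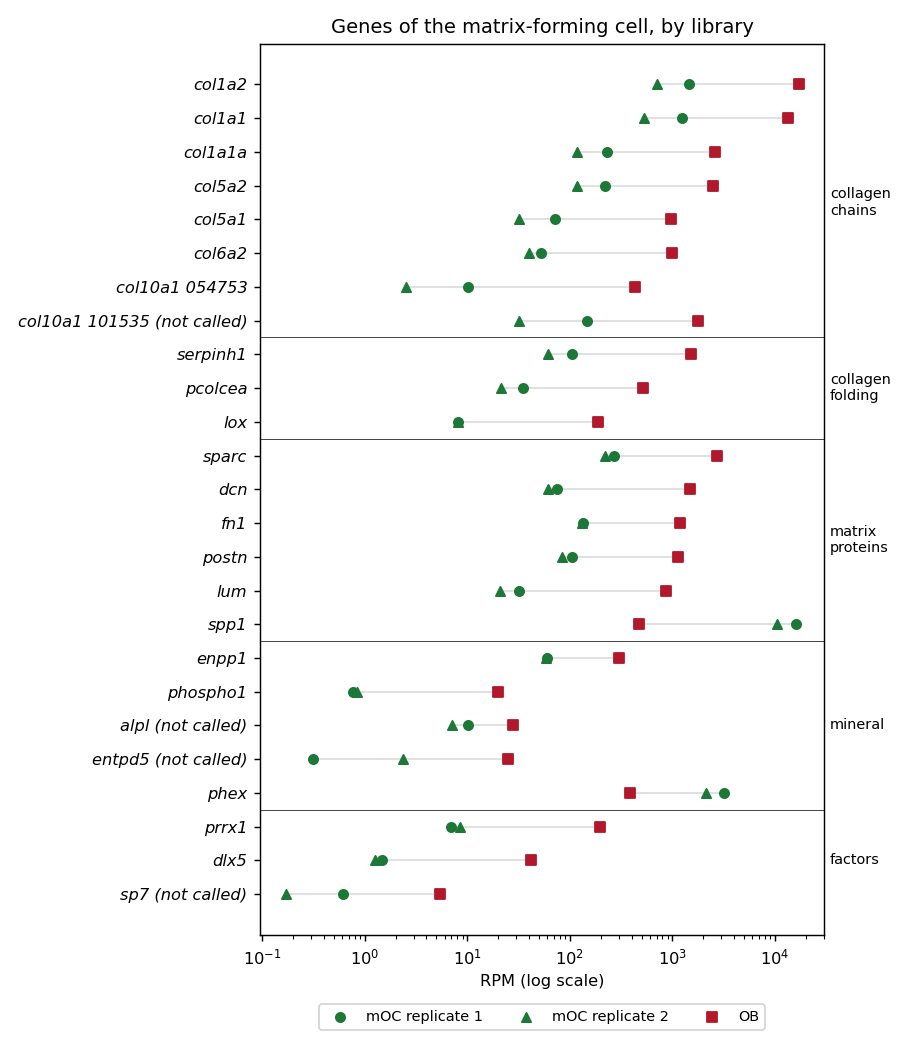
RPM on a log scale in mOC replicate 1 (green circles), mOC replicate 2 (green triangles) and OB (red squares) for collagen chains, collagen folding and cross-linking, matrix proteins, mineralization and transcription factors of the matrix-forming cell. Both mOC libraries lie to the left of OB in every gene drawn except *spp1* and *phex*, and the digits after *col10a1* are the last of its gene ID.

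Transcription factors of osteoblasts and of limb and skin mesenchyme leaned towards OB. Of 42 tested members 11 fell and 1 rose, with a median log2 fold change of -1.32. The share that rose was 2.38%, against 2.63% of all tested genes. *prrx1* (ENSDARG00000033971), a homeobox factor of mesenchyme, had 6.87 and 8.55 RPM in mOC, against 198 RPM in OB (-4.52 ± 0.35, limma adjusted p = 0.00177). *dlx5*, an inducer of *sp7* in mice, had 1.47 and 1.27 RPM in mOC and 41.7 RPM in OB (-4.17 ± 0.44), and *dlx3* had 26.6 and 21.9 RPM in mOC and 107 RPM in OB (-2.11 ± 0.33). *alx4* (-4.13 ± 0.48) and *twist3* (-4.23 ± 0.51) fell by like amounts. The early factor *runx2b* had 3.17 and 2.62 RPM in mOC and 14.2 RPM in OB (-1.97 ± 0.91) and *runx2* had 0.77 and 0.34 RPM in mOC and 1.81 RPM in OB, and neither was called. The member that rose was *mef2c*, a factor of muscle, bone and other lineages, with 118 and 142 RPM in mOC and 30.6 RPM in OB (2.05), named after its value was seen. Of the 12 calls 2 held without mOC replicate 1 or each pOC library and 0 without mOC replicate 2.

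Receptors through which osteoblasts read growth factors leaned the same way, with 10 of 44 tested members lower, 1 higher and a median log2 fold change of -1.37. The share that rose was 2.27%, against 2.63% of all tested genes. The FGF receptors *fgfr3* (13.4 and 9.14 RPM in mOC, 271 RPM in OB, -4.49 ± 0.47) and *fgfr4* (1.24 and 1.52 RPM in mOC, 95.9 RPM in OB, -5.35 ± 0.59) fell, as did the PDGF receptors *pdgfra* (10.1 and 6.52 RPM in mOC, 120.1 RPM in OB, -3.73 ± 0.43) and *pdgfrb* (4.25 and 3.47 RPM in mOC, 90.6 RPM in OB, -4.24 ± 0.42). *pth1r*, the parathyroid hormone receptor, was low in both, with 1.31 and 1.44 RPM in mOC and 3.81 RPM in OB. The member that rose was *tgfbr1*, a TGF-beta receptor, with 135 and 143 RPM in mOC and 15.5 RPM in OB (3.08), named after its value was seen. Of the 11 calls 3 held without mOC replicate 1, 2 without pOC replicate 1, 3 without pOC replicate 2 and 0 without mOC replicate 2.

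Genes of ligands and decoys that act on osteoclasts leaned towards OB. Of 42 tested members 11 fell and none rose, and the median log2 fold change was -1.75. The list also holds the receptor gene *ephb4b* and the matrix gene *postn*, which is counted among the bone and dermal matrix proteins as well. *il34*, a ligand of the CSF1 receptor, had 34.9 and 56.7 RPM in mOC, against 339.8 RPM in OB (-2.90 ± 0.35, limma adjusted p = 0.00596). *csf1a* had 1.47 and 2.2 RPM in mOC and 32.3 RPM in OB (-3.57 ± 0.64, limma adjusted p = 0.0227), while *csf1b* had 5.87 and 14.1 RPM in mOC, on either side of the 10.4 RPM in OB. The receptor of these ligands, *csf1ra*, was higher in mOC, at 173 and 201 RPM in mOC against 32.8 RPM in OB.

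*tnfsf11*, the ligand RANKL that drives osteoclast formation, had 3.48 and 6.43 RPM in mOC, against 13.9 RPM in OB, and was not called (log2 fold change -1.37 ± 0.98, limma adjusted p = 0.527). *tnfrsf11b*, the decoy receptor osteoprotegerin, had 196 and 193 RPM in mOC and 80.5 RPM in OB (1.26 ± 0.36, limma adjusted p = 0.0983). It was not called by limma but passed with DESeq2 on recovered reads (DESeq2 adjusted p = 0.000706), while the edgeR adjusted p was 0.0965. *ephb4b*, a receptor that takes part in contacts of osteoblasts with osteoclasts in mice, had 21.2 and 12.4 RPM in mOC and 189 RPM in OB (-3.46 ± 0.46). Of the 11 calls 1, that of *postn*, held without mOC replicate 1 or each pOC library and 0 without mOC replicate 2.

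The factors that osteoclasts send to osteoblasts in mice were measured in part. The listed symbols *sema4d*, *sema4da*, *sphk1*, *lif* and *afm* matched no gene in the name table and were not analysed. Of the 9 members tested 3 fell and none rose, with a median log2 fold change of -1.78. *slit3* had 25.6 and 29.9 RPM in mOC, against 657 RPM in OB (-4.52 ± 0.30, limma adjusted p = 0.00149), and *cthrc1* had 15.1 and 14.6 RPM in mOC and 359 RPM in OB (-4.51 ± 0.40, limma adjusted p = 0.00248). Both are genes that mouse osteoclasts secrete to act on bone formation. *cthrc1* is also counted among the bone and dermal matrix proteins. *efnb2* (ENSDARG00000074050), the ligand of EphB4, was listed at 0 and 0.17 RPM in mOC, against 7.83 RPM in OB (-3.03 ± 0.51). The calls of *slit3* and *cthrc1* held without mOC replicate 1 and without each pOC library, and none of the 3 held without mOC replicate 2.

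**Figure D4:**
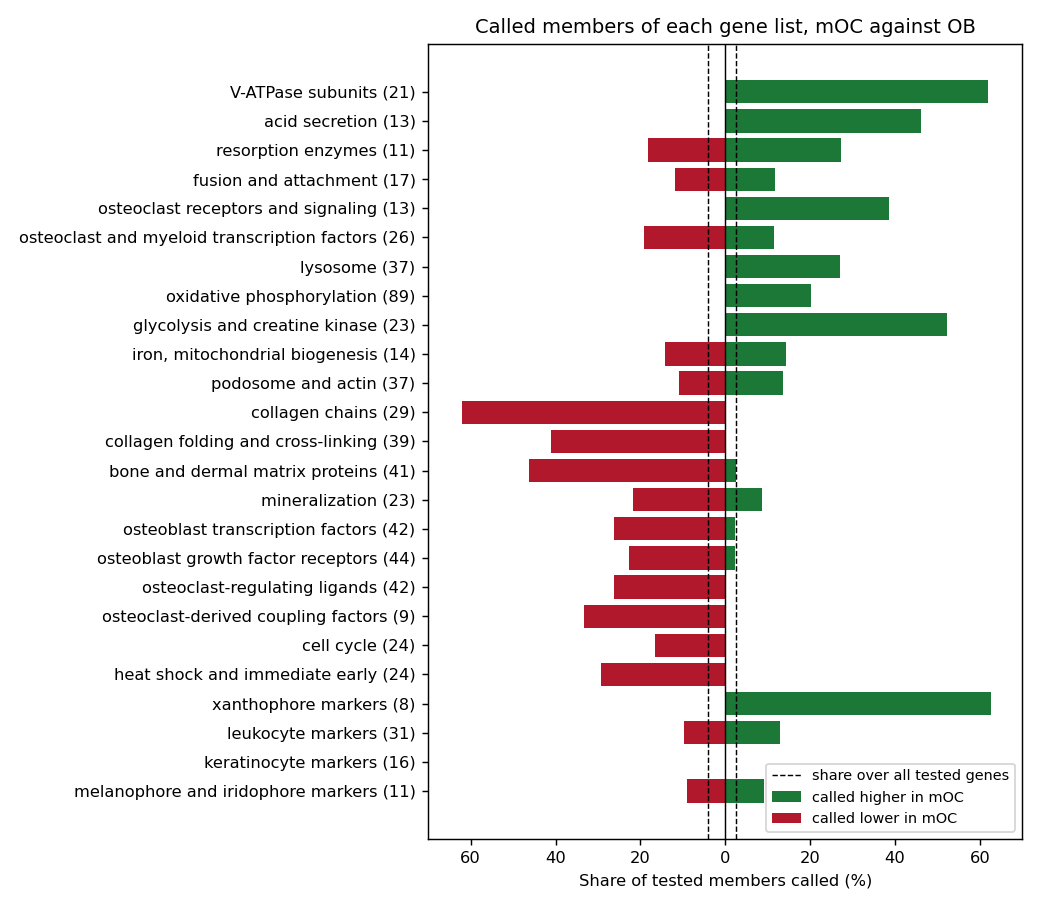
Share of the tested members of each gene list (number tested in parentheses) called higher in mOC (green, to the right of 0) or lower in mOC (red, to the left). Dashed lines mark the shares over all 15635 tested genes, 2.63% higher and 4.16% lower, lists with very few tested members are not drawn, and the bars reach furthest for V-ATPase subunits and xanthophore markers on the right and for collagen chains on the left.

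The genes furthest towards mOC included pigment cell genes beside *acp5* and *mcoln3*. *gch2*, which makes the first step of pteridine pigment in yellow pigment cells (xanthophores), had 596 and 406 RPM in mOC, against 0.94 RPM in OB (log2 fold change 7.99 ± 0.36, limma adjusted p = 0.000746). *aox5*, another gene of the pteridine route, had 670.0 and 728 RPM in mOC and 9.23 RPM in OB (6.10 ± 0.32), and *bco2*, a carotenoid-cleaving enzyme, had 468 and 982 RPM in mOC and 2.01 RPM in OB (7.82 ± 0.76). The sugar transporter genes *slc2a15a* and *slc2a15b* were listed at 0 in OB. *slc2a15a* had 112 and 101 RPM in mOC, at least 504-fold higher than the OB floor of 3 reads when taken from the lower mOC library. *slc2a15b*, which acts in pigment cells of fish, had 88.2 and 82.8 RPM in mOC, at least 412-fold higher by the same measure.

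Others of this set were *npr1b*, a natriuretic peptide receptor (307 and 195 RPM in mOC, 0.8 RPM in OB, 7.09 ± 0.60), *bscl2*, seipin of lipid droplets (95.5 and 143 RPM in mOC, 0.54 RPM in OB, 6.26 ± 0.61), *cax1*, a cation and proton exchanger (91.9 and 111 RPM in mOC, 0.54 RPM in OB, 6.05 ± 0.80), *si:dkey-251i10.2* (83.9 and 179 RPM in mOC, 1.07 RPM in OB, 5.90 ± 0.72), and *slc22a7a*, an organic anion transporter (71.8 and 76.2 RPM in mOC, listed at 0 in OB, at least 357-fold higher by that measure). Of these 12 genes *gch2*, *mcoln3*, *acp5* and *aox5* kept their calls in all 6 fits without a library. *bco2*, *npr1b* and *slc22a7a* lost theirs without mOC replicate 2 only, and *slc2a15a* without each mOC library only. *slc2a15b*, *bscl2*, *cax1* and *si:dkey-251i10.2* lost theirs without each of the mOC and pOC libraries. Some genes of the set had levels in pOC near those in mOC, namely *slc22a7a* (88 and 74.2 RPM in pOC), *slc2a15b* (73.25 and 92.3 RPM) and *bscl2* (80.5 and 101.9 RPM). Others were far lower in pOC, such as *npr1b* (13.1 and 15.9 RPM) and *mcoln3* (23.9 and 24.6 RPM).

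The genes furthest towards OB were secreted, membrane or matrix proteins and a few regulators. *ndnf*, a secreted protein with fibronectin domains, had 5.95 and 8.72 RPM in mOC, against 481 RPM in OB (log2 fold change -5.87 ± 0.52, limma adjusted p = 0.00248). *abcc6a*, a transporter whose loss causes ectopic mineral in zebrafish and people, had 1.31 and 1.44 RPM in mOC and 110.2 RPM in OB (-5.55 ± 0.43). *cyp24a1*, which degrades active vitamin D, had 2.16 and 1.44 RPM in mOC and 101 RPM in OB (-5.19 ± 0.59). *foxd1*, a forkhead factor of stromal cells, had 6.41 and 1.35 RPM in mOC and 175 RPM in OB (-5.39 ± 0.70).

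The matrix genes in this set were *tnn*, tenascin N (1.08 and 1.27 RPM in mOC, 88.9 RPM in OB, -5.37 ± 0.56), *mxra5* (3.17 and 4.49 RPM in mOC, 167 RPM in OB, -5.13 ± 0.48) and *hyal4*, of the hyaluronidase family (3.24 and 1.18 RPM in mOC, 137 RPM in OB, -5.51 ± 0.72). A gene listed as *fpr1*, a formyl peptide receptor of mammalian leukocytes (ENSDARG00000042984), had 13.7 and 14.9 RPM in mOC and 647 RPM in OB (-5.41 ± 0.35). Of the 12 genes of this set *ndnf*, *abcc6a*, *fpr1* and *mxra5* lost their calls without mOC replicate 2 only. *foxd1* and *col5a2b* lost theirs without mOC replicate 2 and without each pOC library, and *col10a1* without each pOC library. *hyal4*, *cyp24a1* and *col6a4a* lost theirs without each of the mOC and pOC libraries. The call of *tnn* was lost without each mOC library and pOC replicate 1, and that of *fgfr4* without each mOC library only.

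Markers of xanthophores stood out in mOC. Of 8 tested members 5 were called higher and none lower, the median log2 fold change was 3.17, and their RPM summed to 1593 and 1399 in mOC, against 78.4 in OB. pOC had 917 and 1001 RPM and EV 234 and 242. Beside *gch2* and *aox5*, *scarb1*, a carotenoid uptake receptor, had 137 and 114 RPM in mOC and 28.1 RPM in OB (2.11 ± 0.32), and *bco1* had 97.2 and 85.5 RPM in mOC and 3.01 RPM in OB (4.52 ± 0.73). Both mOC libraries had these genes. The part of xanthophore RNA in the genes called higher in mOC, and in *csf1ra* and *mitf*, was not tested. Of the 5 calls, those of *gch2* and *aox5* held when any library was left out, and the others were lost without each of the mOC and pOC libraries. The melanophore and iridophore markers summed to 84.7 and 77.4 RPM in mOC and 18.5 RPM in OB, with 1 of 11 higher and 1 lower. *pnp4a*, a purine enzyme of iridophores, had 23.2 and 36.5 RPM in mOC and 0.33 RPM in OB (4.50 ± 0.66), and *ltk*, a receptor of iridophores, was listed at 0 in both mOC libraries against 5.49 RPM in OB, at least 21.6-fold lower by the floor of 3 reads per library. Both calls were lost without each of the mOC and pOC libraries.

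Leukocyte markers did not shift as a set, with 4 of 31 tested members higher, 3 lower and a median log2 fold change of -0.23 that was 0.00 with quantile normalization. Their RPM summed to 3909 and 3124 in mOC and 1017 in OB. *itgb2*, the leukocyte integrin beta chain, had 813 and 718 RPM in mOC, against 99.8 RPM in OB (2.92 ± 0.31, limma adjusted p = 0.00412), and *laptm5* had 121 and 122 RPM in mOC and 24.4 RPM in OB (2.27 ± 0.39). *ptprc*, CD45, had 89.5 and 54.9 RPM in mOC and 31.8 RPM in OB and was not called by limma (1.11 ± 0.36) or edgeR. It passed with DESeq2 on recovered reads (DESeq2 adjusted p = 0.0464). *mpeg1* (ENSDARG00000043093), a macrophage perforin, ran towards OB, with 19.2 and 14 RPM in mOC and 167 RPM in OB (-3.27 ± 0.48). Another *mpeg1* (ENSDARG00000055290) had 1.47 and 1.18 RPM in mOC and 1.94 RPM in OB, and the remaining copy was listed at 0. None of the 7 calls held without mOC replicate 1 or without mOC replicate 2, and those of *lcp1* and *mpeg1* held without each pOC library.

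Apart from the fibroblast markers given with the matrix proteins, the remaining markers were low or alike where they could be measured. The listed symbols *mpx* and *cpa5* of neutrophils, *pecam1* of endothelium and *hbba1* and *hbba2* of red cells matched no gene in the name table. Only 2 neutrophil markers and 4 of endothelium, Schwann cells and red cells were tested. Neutrophil markers summed to 21.1 and 33.4 RPM in mOC and 27.2 RPM in OB, and *lyz* was listed at 0. Lymphocyte markers summed to 13.7 and 6.77 RPM in mOC and 2.67 RPM in OB, and those of endothelium, Schwann cells and red cells to 14.6 and 11.4 RPM in mOC and 15 RPM in OB. Keratinocyte markers were abundant in both fractions, at 6940.2 and 9094 RPM in mOC and 8972 RPM in OB, with 0 of 16 tested members called by limma or edgeR, and 2 called higher and none lower by DESeq2. Their median log2 fold change was -0.08, and 0.12 with TMM scaling. *krt4* had 713 and 399.6 RPM in mOC and 1304 RPM in OB (-1.29 ± 0.55, limma adjusted p = 0.25), *krt5* 0.23 and 3.05 RPM in mOC and 3.08 RPM in OB, and *epcam* at most 0.46 RPM in mOC and 0.07 RPM in OB.

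**Figure D5:**
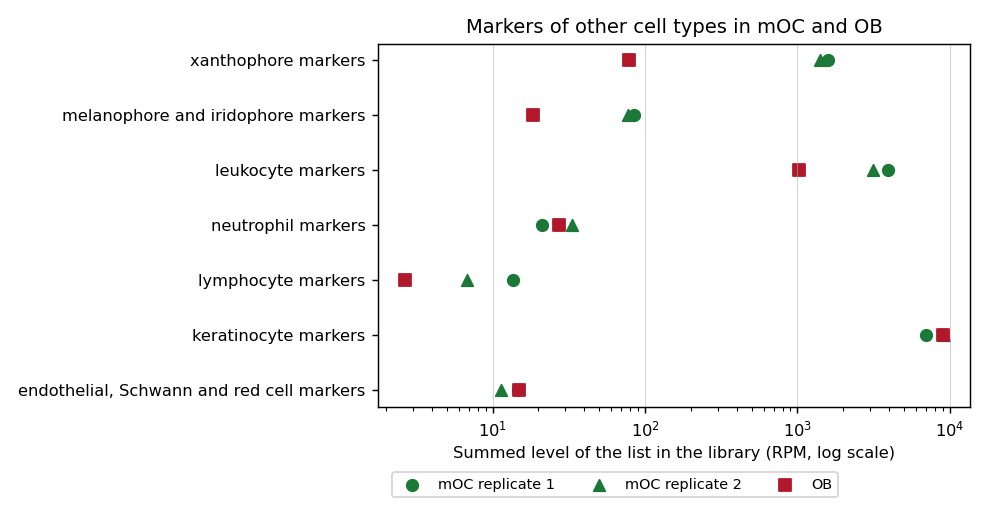
Summed RPM of the marker lists of other cell types, on a log scale, in mOC replicate 1 (green circles), mOC replicate 2 (green triangles) and OB (red squares). Xanthophore markers lay at 1593 and 1399 RPM in mOC against 78.4 RPM in OB, whereas in the keratinocyte markers the OB square (8972 RPM) covers mOC replicate 2 (9094 RPM), and in the lowest row it covers mOC replicate 1 (14.6 RPM).

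Stress genes made up a large part of all libraries. The heat shock and immediate early genes summed to 98519 and 105712 RPM in mOC, against 124277 RPM in OB. The inducible chaperones *hsp70l*, with 34935 and 38804 RPM in mOC and 44627 RPM in OB (log2 fold change -0.28 ± 0.24), and *hsp70.3*, with 24664 and 22530.3 RPM in mOC and 34501 RPM in OB (-0.55 ± 0.14), were not called. Of 24 tested members 7 fell and none rose, with a median of -0.71. They were mainly immediate early genes, which respond to stimuli within minutes, among them *fosb* (68.7 and 50.7 RPM in mOC, 276 RPM in OB, -2.20 ± 0.30) and both genes listed as *junb* (748 and 762 RPM in mOC and 1686 RPM in OB for ENSDARG00000104773, 360.4 and 359.8 RPM in mOC and 956 RPM in OB for ENSDARG00000074378). *fos* had 285 and 203 RPM in mOC and 449 RPM in OB and was not called (-0.90 ± 0.31). Whether the digestion and sorting set these levels was not tested.

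Cell cycle genes leaned towards OB, with 4 of 24 tested members called lower, none higher and a median log2 fold change of -0.83. All 4 called members are genes of DNA replication. The log2 fold change was negative in 22 members and positive in 2, *ccnb2* (0.38 ± 0.67) and *cdk1* (0.14 ± 0.61), genes of cell division named after their values were seen. *pcna*, the sliding clamp of DNA replication, had 92.8 and 94.5 RPM in mOC, against 338 RPM in OB (-1.84 ± 0.23, limma adjusted p = 0.00679). The replication licensing genes *mcm4* (69.7 and 55.3 RPM in mOC, 237 RPM in OB, -1.91 ± 0.27) and *mcm5* (32.6 and 35.7 RPM in mOC, 149.8 RPM in OB, -2.10 ± 0.30) were likewise lower. None of the 4 cell cycle calls and none of the 7 stress gene calls held when any mOC or pOC library was left out.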

How the data were processed

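RNA of sorted cells was copied from oligo-dT primers, tailed and amplified by PCR (Quartz-Seq), and libraries were made with a Nextera XT kit. According to the submitters' notes, reads were mapped to GRCz11 with HISAT2 2.1.0 and counted with Subread 1.6.4. The deposited values are RPM per Ensembl gene, to 2 decimals, made by the authors from reads in genes. Which annotation release was counted, and whether by strand, is not given in the sources used here. Both deposited OB files held identical values under the same column header, which names replicate 2, and were used once. The replicates are biological replicates of an experiment performed once.

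RPM values were used without further scaling. limma 3.58.1 (trend, robust empirical Bayes) in R 4.3.3 was fitted to log2(RPM + 1) of the 15635 genes that reached 1 RPM in any library, with a mean for each of the 4 fractions (3 residual and, in the median, 3.87 prior degrees of freedom). A call needed a log2 fold change beyond 1 and a p below 0.05 after Benjamini-Hochberg adjustment. Every SE and adjusted p comes from this fit unless another tool is named. Reads were recovered as whole multiples of 1 read (99.99% of values within 0.005 RPM in each mOC and OB library) and gave depths and floors, which cover counting error only. Count tests used the recovered reads of the 5 mOC, OB and EV libraries (edgeR 4.0.16; DESeq2 1.42.0). The pOC libraries were left out of these tests. Of their values up to about 20 reads, 83.9% and 80.4% lay within 0.1 of a whole read, against 100% in the other libraries. In pOC 1 read was 0.0409 and 0.0411 RPM, so rounding to 2 decimals alone can exceed that tolerance. Within 0.005 RPM, 99.98% and 99.997% of pOC values were whole. The lower shares thus do not show that pOC reads could not be recovered.

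Genes were named by a rule: 12 of largest change per direction with a symbol and at least 50 RPM in the higher fraction, the members marked as main in 28 gene lists, and up to 3 further called members per list, 162 genes in all. The members of the comparison and the lists were chosen with earlier results of these data known, so list counts are descriptions. Symbols came from a gene name table (28988 of 32057 genes) that drops the paralog letter of some genes and in which 1770 symbols stand for more than 1 gene, so such paralogs are given by ID and may share reads. Of 668 listed symbols 37 were not matched. A few named genes are not reported here.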

Additional observations from a re-analysis of the deposited data

How the results depend on the processing

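Counts of calls moved with the libraries used more than with the scale. Leaving out 1 library gave 5 to 890 genes higher and 12 to 1440 lower in mOC, lowest without mOC replicate 2 (5 and 12), then without mOC replicate 1 (45 and 111) and the pOC replicates (63 and 78, 64 and 88), and highest without the EV replicates (890 and 1440, 880 and 1435). With only the 5 libraries of cells the counts were 920 and 1486, and with only mOC and OB 297 and 433. edgeR gave 97 and 182, DESeq2 646 and 639, and the rule of the study (F test, unadjusted p, 2-fold) 673 and 1587. That rule was run here on the 7 distinct libraries, with the fold taken between mOC and OB. The study used it to pick the genes up-regulated in each fraction, so these counts are not those of the study. The other pseudocounts, filters, scalings and limits gave 305 to 567 higher and 490 to 761 lower. At an unadjusted p under 0.05, limma passed 3185 genes. Of the 120 named genes that were called, 109 lost their call without mOC replicate 2, 63 without mOC replicate 1 and 41 with edgeR.

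Reversed signs were seen in genes that were not called. *slc4a2* (ENSDARG00000028173) had a log2 fold change of -1.74 to 0.26 when an mOC replicate was left out (0.26 without replicate 2), *itgb3* (ENSDARG00000056767) -0.10 with the replicate block and OB as replicate 2 and -0.12 without mOC replicate 1, and *csf1b* 0.0252 with TMM, 0.12 with quantile normalization, 0.63 with the replicate block and OB as replicate 1, 0.10 with edgeR and DESeq2, and -0.73 to 0.41 when a replicate was left out (0.41 without mOC replicate 1). In each of these genes 1 mOC replicate lay above OB and the other below it. Without 1 mOC replicate the sign thus follows the replicate that is left. Why the replicates differed, and why other settings turned the sign, was not tested.

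Replicate numbers were not taken as pairs in the main fit, and the labels do not state a pairing. Deviations of same-numbered libraries correlated at 0.157 between mOC and pOC and at 0.065 and 0.066 between either and EV, across genes. With 2 replicates in each of these fractions, the correlations cannot show whether libraries were paired. A replicate block gave 441 higher and 576 lower with OB as replicate 1, and 399 and 579 with OB as replicate 2. With 1 OB library, no setting measures the spread of OB.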

Other observations

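Outside the gene lists, 318 genes were called higher and 532 lower in mOC. The genes given here are among those with the highest levels, chosen after their values were seen. Towards mOC, *slc37a2*, a sugar phosphate exchanger gene, had 2984 and 2317 RPM in mOC, against 219 RPM in OB (log2 fold change 3.58 ± 0.27, limma adjusted p = 0.00174), and its call was lost without mOC replicate 2 only. *slc25a3*, the mitochondrial phosphate carrier, had 3462 and 3583 RPM in mOC and 1479 RPM in OB (1.25 ± 0.17), and *anxa5b*, an annexin, had 2783 and 2806 RPM in mOC and 1186 RPM in OB (1.24 ± 0.18). The calls of *slc25a3* and *anxa5b* were lost without each of the mOC and pOC libraries.

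Towards OB, *clu*, the secreted chaperone clusterin, had 67.3 and 62 RPM in mOC, against 1459 RPM in OB (-4.48 ± 0.23, limma adjusted p = 0.000746), a call that held in all 6 fits without a library. *fstl3*, a binding protein of activin, had 76.5 and 65.1 RPM in mOC and 1583 RPM in OB (-4.47 ± 0.47). The call of *fstl3* was lost without each of the mOC and pOC libraries.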
